A study of Homo sapiens with 16 samples.

Results

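MMP7, MMP1 and MMP19 encode matrix metalloproteinases. The probe sets annotated to these genes alone were taken from the deposited values table, and each gene had 1 such probe set (204259_at for MMP7, 204475_at for MMP1 and 204575_s_at for MMP19), which makes 3 of 9554 probe sets and 3 of the 5250 genes analysed. The arrays measured RNA from AsPC-1 cells, a line established from a human pancreatic adenocarcinoma. A drug experiment gave the cells 10 µM ICG-001, or DMSO as its vehicle, over 6 h or 24 h (4 groups of 3 arrays). A separate knockdown experiment transfected them for 48 h with siRNA at 20 nM, either a control or one to CTNNB1, the β-catenin gene (2 groups of 2 arrays). No group received both the drug and an siRNA.

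Matrix metalloproteinases are zinc-dependent endopeptidases that are made as inactive proenzymes and, once the propeptide is removed, cut collagens, laminins and other matrix proteins as well as proteins at the cell surface. MMP7, also called matrilysin, is a small family member without a hemopexin domain, is made mainly by epithelial cells, and is a known target of Wnt signalling through β-catenin and TCF factors. MMP1 is the interstitial collagenase, which opens fibrillar collagen and is known to be induced through AP-1 factors. MMP19 cleaves components of basement membranes. ICG-001 is known as a compound that binds CBP, a transcriptional coactivator, and keeps β-catenin from it. Both treatments are thus directed at β-catenin, and neither effect on it was measured here.

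The promoter of MMP7 is shown because both treatments bear on β-catenin and its partner TCF. It was read from RefSeq promoters on GRCh38.p14, whose table matched 1 of the 3 genes. The 250 bases before the gene's start, at chr11:102530748-102530997 on the minus strand, are written 5′ to 3′, with capitals for matches to AP-1 (TGANTCA), TCF (CTTTGA or its reverse complement TCAAAG) and ETS (AGGAAG or its reverse complement CTTCCT) letters.
MMP7: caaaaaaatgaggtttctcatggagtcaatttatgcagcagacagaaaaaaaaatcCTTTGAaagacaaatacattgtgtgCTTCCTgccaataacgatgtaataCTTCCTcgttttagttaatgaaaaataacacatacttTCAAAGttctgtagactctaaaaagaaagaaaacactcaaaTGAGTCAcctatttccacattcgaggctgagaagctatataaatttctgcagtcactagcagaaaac
The TCF letters began 194 and 108 bases before the start, on opposite strands. The ETS letters began 169 and 145 bases before it, and the AP-1 letters 67 bases before it. None of these matches overlapped another. Of 35116 promoter windows of the same length, 11.2% held the TCF letters on either strand and 0.977% held them at 2 or more places. The AP-1 letters were in 6.57% of the windows and the ETS letters in 28.7%, with 5.77% holding the ETS letters at 2 or more places. A match describes the letters only.

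Each of the 3 genes had its own pattern over the treatments. MMP7 was lower with ICG-001 and lower with CTNNB1 siRNA. MMP1 was higher with ICG-001, and its siRNA groups overlapped. MMP19 was higher with CTNNB1 siRNA and differed little with ICG-001. The genes were chosen on their differences in these same arrays, so their values are a description and carry no test. In RNA pooled from a culture, fewer cells with a transcript and less of it per cell cannot be told apart. Intensities are the deposited ones. Each fitted difference is on a log2 scale after 16 was added and the arrays were quantile normalized, is given ± SE, and is the first group minus the second. The SE uses a spread shared by the arrays of both experiments, so for the siRNA groups it is not their own spread.

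MMP7 had intensities of 1573.66, 1589.99 and 1651.63 on the arrays with DMSO for 6 h. With ICG-001 for 6 h they were 1299.22, 1307.72 and 1360.39. All 3 drug arrays lay below all 3 vehicle arrays at this time, and the ratio of the mean intensities was 0.824. The fitted difference was -0.69 ± 0.15, and it was -0.28 in the deposited scaling and -0.29 with each array centred on its median. The size of the 6 h difference thus depended on the scaling, while its direction did not.

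At 24 h MMP7 read 1743.34, 1662.24 and 1604.90 with DMSO. With ICG-001 it read 419.22, 396.33 and 382.45. The drug arrays lay far below the vehicle arrays, with means of 399.3 ± 18.6 and 1670 ± 69.6 (± SD, n = 3 each) and a ratio of 0.239. This gave a fitted difference of -2.45 ± 0.15, and 7 of the 5250 genes had a lower one. It was -2.02 in the deposited scaling.

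With control siRNA MMP7 read 2274.65 and 3669.65, and with CTNNB1 siRNA 589.22 and 772.61. Both knockdown arrays lay below both control arrays, and the ratio of the means was 0.229. The control arrays themselves differed, with a mean of 2972 ± 986 (± SD, n = 2). The fitted difference was -2.39 ± 0.18, and 0 genes had a lower one. It was -1.95 without control siRNA replicate 2 and -2.86 without control siRNA replicate 1. The SE of the fitted difference draws on all 16 arrays. On the log2 scale the control arrays lay 0.89 apart and the CTNNB1 siRNA arrays 0.42.

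MMP1 went the other way with the drug. It read 479.74, 471.82 and 454.17 with DMSO for 6 h. With ICG-001 for 6 h it read 796.24, 760.94 and 808.38. All drug arrays lay above all vehicle arrays, with a ratio of the means of 1.68. Fitted on the log2 scale, the difference was 0.48 ± 0.15, and it was 0.73 in the deposited scaling.

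At 24 h MMP1 read 405.90, 414.00 and 394.29 with DMSO. With ICG-001 it read 2533.65, 2584.87 and 2609.11. The drug arrays lay far above the vehicle arrays, with means of 2576 ± 38.5 and 404.7 ± 9.91 (± SD, n = 3 each) and a ratio of 6.36. The fitted difference was 2.18 ± 0.15, and 12 genes had a higher one.

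In the knockdown experiment MMP1 read 1350.97 and 680.09 with control siRNA and 1138.14 and 1120.52 with CTNNB1 siRNA. Both knockdown arrays lay between the control arrays, so the groups overlapped. Their fitted difference was 0.17 ± 0.18. Its direction hung on 1 control array, being -0.33 without control siRNA replicate 2 and 0.66 without control siRNA replicate 1. The arrays therefore gave no direction for MMP1 after the knockdown.

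MMP19 showed its difference in the knockdown experiment. It read 15.85 and 10.04 with control siRNA and 101.95 and 72.54 with CTNNB1 siRNA. Both knockdown arrays lay above both control arrays, with means of 87.2 ± 20.8 and 12.9 ± 4.11 (± SD, n = 2 each) and a ratio of 6.74. This gave a fitted difference of 2.01 ± 0.15, and 1 gene had a higher one. Since the control arrays lay below the 16 added before log2, the size depended on that number, at 2.68 with 1 added and 1.19 with 64 added.

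With the drug MMP19 changed little. At 6 h it read 220.90, 206.76 and 245.24 with DMSO and 236.88, 215.00 and 228.85 with ICG-001, and the groups overlapped. The fitted difference was -0.07 ± 0.12, and it was 0.02 in the deposited scaling. At 24 h it read 192.24, 179.19 and 195.31 with DMSO and 229.72, 201.99 and 232.55 with ICG-001. These groups did not overlap in the deposited values, with a ratio of the means of 1.17, but overlapped after quantile normalization. The fitted 24 h difference was 0.08 ± 0.12.

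**Figure D1:**
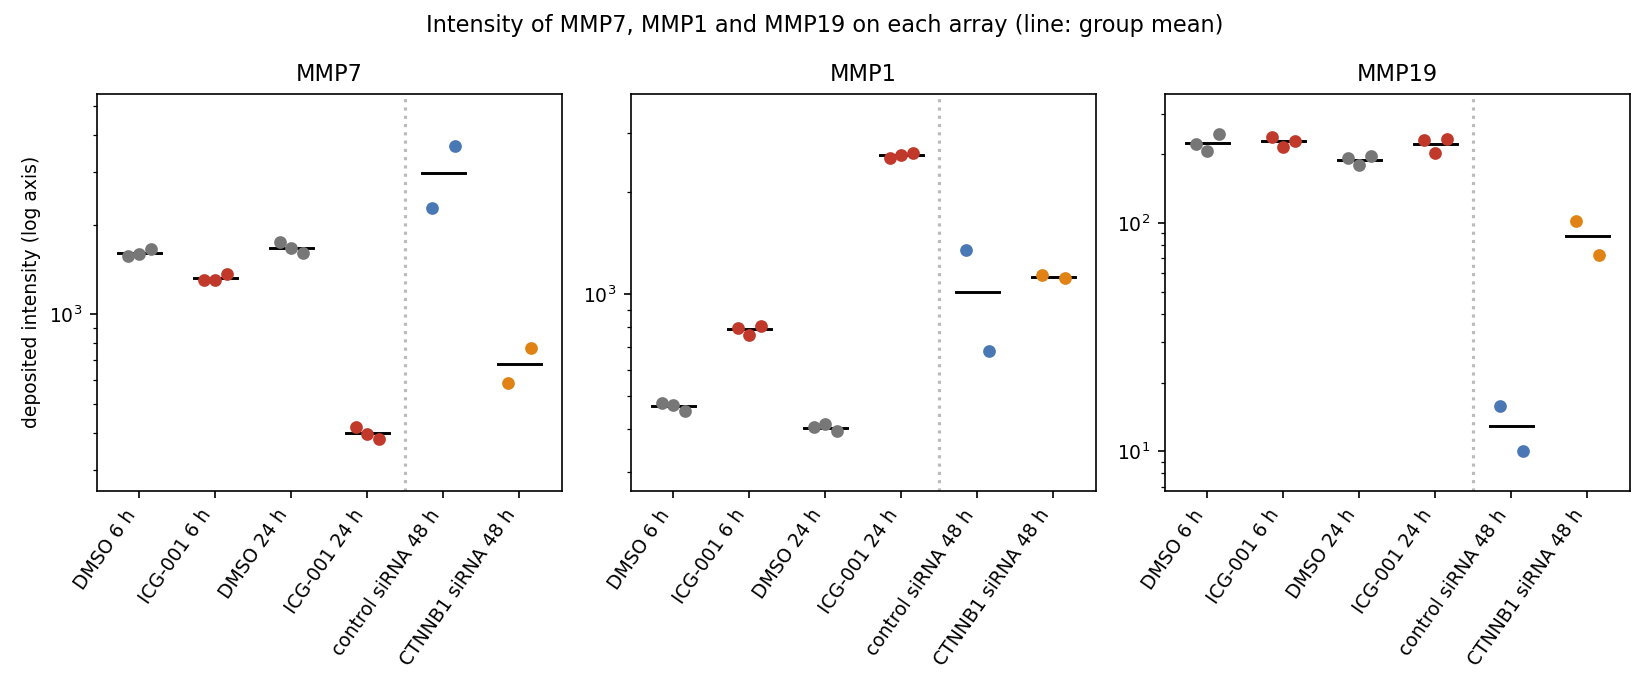
Deposited intensity (log axis) of MMP7, MMP1 and MMP19 on each of the 16 arrays, by group, with a point per array and a line at the group mean. MMP7 was lowest with ICG-001 for 24 h (382.45 to 419.22), MMP1 was highest there (2533.65 to 2609.11), and MMP19 was lowest with control siRNA (10.04 and 15.85).

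Counted at an adjusted p under 0.05 in limma, 2 of the 3 genes passed with ICG-001 at 6 h, MMP1 and MMP7, where 13.8% of the 5250 genes did, all of them genes that varied between these arrays. The same 2 passed at 24 h, where 20.5% of genes did. With CTNNB1 siRNA 2 passed, MMP7 and MMP19, where 12% of genes did. Counted by arrays that did not overlap after normalization, 2 of 3 genes qualified in each comparison, against 27.5% of all genes at 6 h, 32.8% at 24 h and 44.1% with CTNNB1 siRNA. Nothing is read from these counts, since the genes were chosen with the results known. At 6 h the call of MMP7 ended in the deposited scaling and with arrays centred on their medians, and the call of MMP1 ended without each of the 6 arrays in turn and in a fit with no intensity trend. Fitted on the drug arrays alone, MMP1 kept its call at 6 h, and its difference stayed between 0.46 and 0.51 with each array left out.

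**Figure D2:**
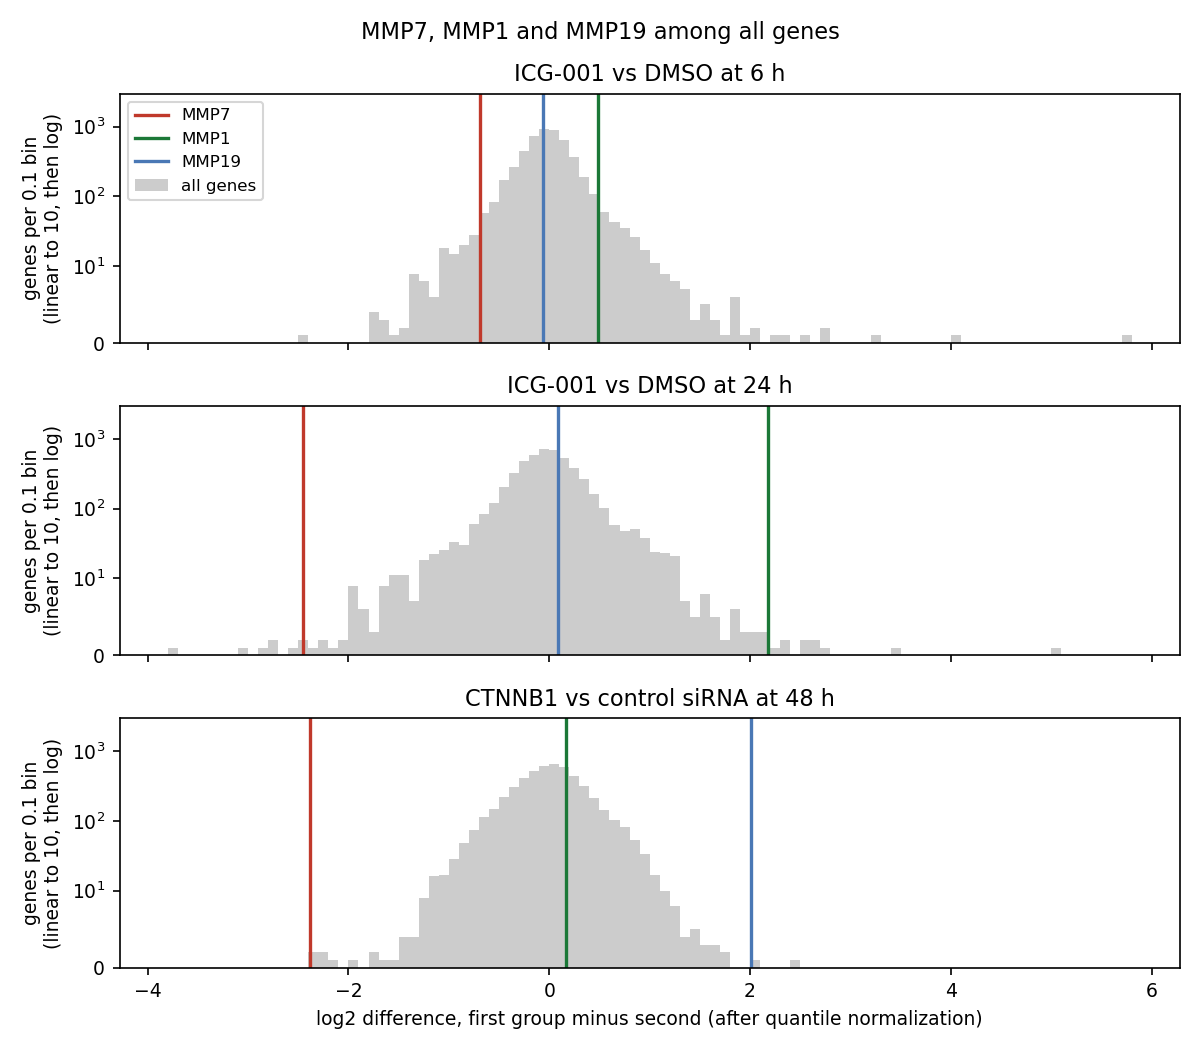
Number of genes per bin of 0.1 in fitted log2 difference (gray bars, an axis linear to 10 and then logarithmic) for ICG-001 against DMSO at 6 h and 24 h and for CTNNB1 against control siRNA, with lines at MMP7, MMP1 and MMP19. MMP7 (-2.45) and MMP1 (2.18) lay at opposite ends at 24 h, and MMP7 (-2.39) and MMP19 (2.01) at opposite ends after the knockdown.

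Time was compared within the drug experiment. In cells with DMSO, MMP7 overlapped between 24 h and 6 h, with a ratio of the means of 1.04. MMP1 and MMP19 were lower at 24 h than at 6 h on all arrays, with ratios of 0.864 and 0.842, so 2 of 3 genes did not overlap, where 22% of genes did not. None of the 3 genes passed the threshold, where 8.63% of genes did. In cells with ICG-001, MMP7 was lower at 24 h, with a ratio of 0.302, and MMP1 was higher, with a ratio of 3.27. MMP19 overlapped there, with a ratio of 0.976. Of the 3 genes, MMP1 and MMP7 did not overlap, where 33.8% of genes did not, and the same 2 passed, where 17.4% of genes did.

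The ICG-001 difference at 24 h minus that at 6 h was -1.76 ± 0.21 for MMP7 and 1.69 ± 0.21 for MMP1. It was 0.15 ± 0.18 for MMP19. As a description, the drug difference of MMP7 and of MMP1 was larger at 24 h than at 6 h, in opposite directions. Both are counted among the 7.81% of genes past the threshold for this change, and nothing is read from that count.

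The order of the group means of MMP7 ran from control siRNA (2972) through DMSO at 24 h (1670), DMSO at 6 h (1605), ICG-001 at 6 h (1322) and CTNNB1 siRNA (680.9) to ICG-001 at 24 h (399.3). Among neighbours in this order, only the DMSO groups overlapped. The order for MMP1 ran from ICG-001 at 24 h (2576) through CTNNB1 siRNA (1129), control siRNA (1016), ICG-001 at 6 h (788.5) and DMSO at 6 h (468.6) to DMSO at 24 h (404.7). The control siRNA group overlapped both of its neighbours, and only CTNNB1 siRNA after normalization. For MMP19 the first 3 groups, ICG-001 at 6 h (226.9), DMSO at 6 h (224.3) and ICG-001 at 24 h (221.4), overlapped their neighbours. DMSO at 24 h (188.9), CTNNB1 siRNA (87.2) and control siRNA (12.9) followed without overlap. After normalization DMSO at 24 h overlapped ICG-001 at 24 h as well. Where such an order crosses from one experiment to the other, the experiment and the group cannot be told apart.

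Array-wide facts bear on these values. The median intensity was 20.6 to 28.6 on the 12 drug arrays and 12.7 to 13.05 on the 4 siRNA arrays. The siRNA pairs were the most unlike, with 233 genes differing over 2-fold between the control arrays and 233 between the CTNNB1 siRNA arrays, against 17 to 96 in the drug groups. Between the control arrays, replicate 2 minus replicate 1 was 0.89 for MMP7, -0.99 for MMP1 and -0.47 for MMP19 on the log2 scale. CTNNB1 itself was not among the genes analysed here, so its knockdown was not checked. Of 8 ductal epithelial markers 4 were measured, with mean intensities from 70.9 (lowest gene) to 963 (highest gene) over all arrays. Their summed intensity was 2445 to 3340 on the drug arrays and 399.7 to 551.6 on the siRNA arrays. The 4 measured of 7 fibroblast markers summed to 105.5 to 180 and 103.5 to 151.4. PTPRC, the measured 1 of 6 leukocyte markers, was at 4.07 to 31.74, and the 2 measured of 4 endothelial markers summed to 5.41 to 30.65. Per the labels, replicates are biological, but no separate cultures are named, so p-values measure the spread between these samples, which may be technical. The fit shares that spread between both experiments, so SEs and p-values of the siRNA comparison rest in part on the drug arrays.

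MMP7 and MMP1 belong to a run of 9 neighbouring metalloproteinase genes on chromosome 11 in the order of RefSeq's GRCh38.p14 annotation (MMP7, MMP20, MMP27, MMP8, MMP10, MMP1, MMP3, MMP12 and MMP13), whereas MMP19 lies on chromosome 12. Of the 9, 4 were measured. Between MMP7 and MMP1 in the run, MMP10 (stromelysin 2) had differences of 0.17 ± 0.16 (adjusted p = 0.728) with ICG-001 at 6 h, 0.38 ± 0.16 (adjusted p = 0.132) at 24 h and 0.16 ± 0.20 (adjusted p = 0.719) with CTNNB1 siRNA in limma. MMP8 (neutrophil collagenase) read at most 26.03 on any array and passed in no comparison. MMP7 and MMP1 went in opposite directions with ICG-001, but both were chosen on their differences, so nothing is read from this about the run. The promoter window of MMP10 also held the AP-1 letters 67 bases before its start, and that of MMP20 held them 112 bases before its start. Those of MMP8 and MMP27 did not hold them, and MMP1, MMP3, MMP12 and MMP13 had no window to read.

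The whole family list had 24 genes, of which 9 were measured, 6 of them besides MMP7, MMP1 and MMP19. The others may have been on the arrays and varied little, or had no probe set of their own. With ICG-001 at 6 h 1 of these 6 rose, at 24 h 2 rose, and with CTNNB1 siRNA 1 rose, while none fell. Over all genes 5.56% rose and 8.23% fell at 6 h, 9.22% rose and 11.3% fell at 24 h, and 6.19% rose and 5.83% fell with the siRNA. The median difference of the 6 was 0.10, 0.23 and 0.32, against -0.02, -0.02 and 0.01 over all 5250 genes. MMP14, a membrane-anchored enzyme that activates the proenzyme of MMP2, read 159.51 to 180.72 with DMSO and 230.11 to 260.31 with ICG-001 at 6 h. At 24 h it read 139.83 to 168.08 with DMSO and 375.3 to 407.27 with ICG-001. It rose by 0.44 ± 0.11 (adjusted p = 0.0119) at 6 h and by 1.12 ± 0.11 (adjusted p = 2.79e-07) at 24 h in limma, and its 24 h rise exceeded its 6 h rise by 0.68 ± 0.16 (adjusted p = 0.00997). The 6 h call ended without ICG-001 replicate 3 or DMSO replicate 1, with an adjusted p of up to 0.0778.

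With control siRNA MMP14 read 243.71 and 373.34, and with CTNNB1 siRNA 428.1 and 492.67. It rose by 0.53 ± 0.14 (adjusted p = 0.0182 in limma). Leaving out control siRNA replicate 2 ended that call (0.31, adjusted p = 0.221), as did leaving out CTNNB1 siRNA replicate 1 or fitting the siRNA arrays alone (adjusted p = 0.0644). MMP14 thus passed in all 3 comparisons, and among them its call outlasted every left-out array only with ICG-001 at 24 h.

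MMP28, or epilysin, an enzyme of keratinocytes and other epithelia, rose with time. It read 284.44 to 309.47 with DMSO at 6 h and 386.97 to 396.77 at 24 h, a rise of 0.45 ± 0.08 (adjusted p = 0.000382 in limma). With ICG-001 at 24 h it read 561.05 to 591.21 and was 0.28 ± 0.08 above DMSO (adjusted p = 0.0112), and 0.54 in the deposited scaling. That call ended without ICG-001 24 h replicate 1 (adjusted p = 0.0506). At 6 h its drug difference was -0.11 ± 0.08 (adjusted p = 0.573), and with CTNNB1 siRNA 0.27 ± 0.09 (adjusted p = 0.0672).

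MMP2 (gelatinase A), MMP8, MMP10 and MMP16 (another membrane-type enzyme) passed in no comparison after quantile normalization of all 16 arrays. In the deposited scaling MMP2 passed with ICG-001 at 6 h (0.40, adjusted p = 0.0428) and MMP10 with ICG-001 at 24 h (0.45, adjusted p = 0.0456), and MMP2 passed with CTNNB1 siRNA without control siRNA replicate 1 (0.64, adjusted p = 0.0282). MMP2 read 168.52 to 202.57 with DMSO and 237.63 to 269.09 with ICG-001 at 6 h, a difference of 0.32 ± 0.14 (adjusted p = 0.211 in limma). The MMP16 probe set used read at most 21.81 on any array. Of 6 listed inhibitors of these enzymes 1 was measured, RECK, a membrane-anchored inhibitor, which did not pass with ICG-001 at 6 h (0.10), at 24 h (0.08) or with CTNNB1 siRNA (0.63). Its probe set read 1.32 to 13.22 on the drug arrays, below the 16 added before log2, so those differences carry little, and 8.79 to 32.15 on the siRNA arrays.

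**Figure D3:**
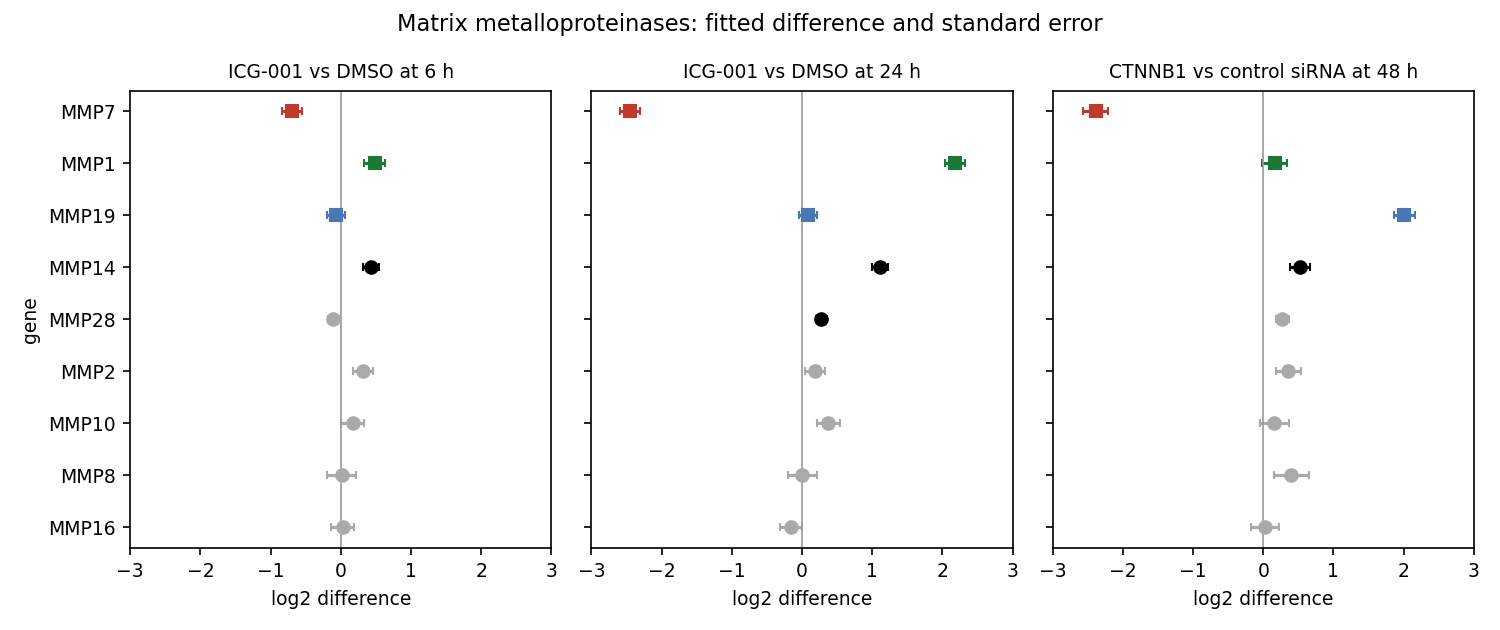
Fitted log2 difference ± SE of the 9 measured matrix metalloproteinases in 3 comparisons, with coloured squares for MMP7, MMP1 and MMP19, black circles for other genes past the threshold and gray circles for those not past it. MMP14 was higher in all 3 comparisons (0.44, 1.12 and 0.53), while MMP7 was lower in all 3 (-0.69, -2.45 and -2.39).

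Related proteinases were counted in the same way, and nothing is read from the counts. Of 30 listed ADAM and ADAMTS genes 16 were measured. With ICG-001 1 rose and 1 fell at each time, where 13.8% of all genes passed at 6 h and 20.5% at 24 h. With CTNNB1 siRNA 2 rose, where 12% of all genes passed. The median differences of the 16 were -0.06 at 6 h, -0.01 at 24 h and 0.13 with the siRNA. ADAMTS17, a secreted metalloproteinase, rose with ICG-001 by 0.83 ± 0.15 at 6 h (adjusted p = 0.000435 in limma) and by 1.81 ± 0.15 at 24 h (adjusted p = 1.52e-08), from 52.3 ± 14.8 to 231 ± 19.1 in intensity at 24 h (± SD, n = 3). ADAMTS15, which cleaves proteoglycans, was lower with ICG-001, with a difference of -1.03 ± 0.08 at 6 h (adjusted p = 8.27e-09). At 24 h its difference was -0.47 ± 0.08 (adjusted p = 0.000134), which was -0.20 and no longer past the threshold in the deposited scaling (adjusted p = 0.109). With CTNNB1 siRNA it rose by 0.71 ± 0.10 (adjusted p = 4.57e-05). ADAM8, a membrane-anchored sheddase, rose with CTNNB1 siRNA by 0.56 ± 0.08 (adjusted p = 0.000127), and passed with ICG-001 at neither time. Of 9 genes of plasminogen activation 2 were measured, and SERPINB5 (maspin) was lower with CTNNB1 siRNA, with a difference of -0.67 ± 0.21 (adjusted p = 0.0402), a call that ended without any 1 of the 4 arrays.

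Genes of matrix proteins that such enzymes cut were measured for 11 of 31 listed. With ICG-001 at 6 h 1 rose and 1 fell, at 24 h 2 rose and 1 fell, and with CTNNB1 siRNA 3 rose. In these comparisons 13.8%, 20.5% and 12% of all genes passed. The medians of the 11 were -0.03, 0.03 and 0.03. LAMB3, a chain of laminin-332 in epithelial basement membranes, rose by 0.40 ± 0.09 at 6 h (adjusted p = 0.00328 in limma), by 1.18 ± 0.09 at 24 h (adjusted p = 3.62e-09) and by 1.23 ± 0.11 with CTNNB1 siRNA (adjusted p = 2.71e-07). In the deposited scaling its drug differences were 1.04 and 1.78. With DMSO, LAMB3 was lower at 24 h than at 6 h (-0.70 ± 0.09, adjusted p = 1.86e-05). COL5A2, a chain of fibrillar collagen V, was lower with ICG-001, with differences of -0.54 ± 0.11 at 6 h (adjusted p = 0.000937) and -1.15 ± 0.11 at 24 h (adjusted p = 6.72e-08). It was higher with CTNNB1 siRNA by 0.57 ± 0.13 (adjusted p = 0.00698), a call that ended without control siRNA replicate 2 or CTNNB1 siRNA replicate 1. COL7A1, the collagen of anchoring fibrils, rose with ICG-001 at 24 h by 0.97 ± 0.15 (adjusted p = 4.06e-05). COL4A3, a basement membrane collagen chain, rose with CTNNB1 siRNA by 1.13 ± 0.32 (adjusted p = 0.0255), which ended without control siRNA replicate 1 or either CTNNB1 siRNA array.

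Of 13 listed surface substrates 6 were measured. With ICG-001 1 rose and 1 fell at 6 h and 1 rose at 24 h, and with CTNNB1 siRNA 3 rose. Among all genes 13.8%, 20.5% and 12% passed in these comparisons. The medians of the 6 were 0.10, 0.01 and 0.34. HBEGF, a membrane-bound EGF receptor ligand that metalloproteinases release, at 6 h read 532 ± 39.2 with DMSO, against 2566 ± 105 with ICG-001 (± SD, n = 3 each). It rose by 1.85 ± 0.07 at 6 h (adjusted p = 2.76e-13 in limma) and by 1.22 ± 0.07 at 24 h (adjusted p = 5.84e-11). CD44, a hyaluronan receptor, rose with CTNNB1 siRNA by 0.62 ± 0.09 (adjusted p = 6.92e-05). Its 6 h drug difference was -0.41 ± 0.07 (adjusted p = 0.000313) and turned to 0.10 (adjusted p = 0.604) in the deposited scaling. HBEGF with CTNNB1 siRNA (0.28 ± 0.08, adjusted p = 0.0341) lost its call without any 1 of the 4 arrays. CDH1, or E-cadherin (0.42 ± 0.13, adjusted p = 0.0487), lost it without control siRNA replicate 2 or either CTNNB1 siRNA array.

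Factors that could read the promoter letters were counted from 3 lists. Of 11 AP-1 genes 3 were measured, and with ICG-001 2 of them rose at each time. Among all genes 5.56% rose at 6 h, 9.22% at 24 h and 6.19% with CTNNB1 siRNA. The medians of the 3 were 0.85 at 6 h, 0.70 at 24 h and 0.05 with CTNNB1 siRNA. ATF3, a stress-induced partner of JUN proteins, rose by 1.33 ± 0.10 at 6 h (adjusted p = 8.15e-09 in limma) and by 0.89 ± 0.10 at 24 h (adjusted p = 1.18e-06). FOSL2, a FOS family protein, rose by 0.85 ± 0.06 (adjusted p = 4.36e-09) and by 0.70 ± 0.06 (adjusted p = 3.76e-08). With CTNNB1 siRNA FOSL2 rose by 0.28 ± 0.08 (adjusted p = 0.0197), a call that ended without control siRNA replicate 1 or CTNNB1 siRNA replicate 2. FOSL2 and ATF3 were lower at 24 h than at 6 h with ICG-001, with differences of -0.23 ± 0.06 and -0.63 ± 0.10 (adjusted p = 0.0129 and 0.00011). The FOSL2 call ended without ICG-001 24 h replicate 2 and in the deposited scaling (adjusted p = 0.0635 and 0.0685). Between these times with ICG-001, MMP1 was higher at 24 h and MMP7 was lower. The window of MMP7 held the AP-1 letters, and MMP1 had no window to read. Whether either gene depends on these factors was not tested.

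Of 12 ETS genes 5 were measured. With ICG-001 1 fell at 6 h and 2 fell at 24 h, and with CTNNB1 siRNA 1 rose and 1 fell. In these comparisons 13.8%, 20.5% and 12% of all genes passed. The medians of the 5 were -0.22, -0.17 and -0.27. ELF4 had -0.24 ± 0.07 at 6 h (adjusted p = 0.0146 in limma) and -0.43 ± 0.07 at 24 h (adjusted p = 5.09e-05), which turned to 0.23 and 0.12 in the deposited scaling. Its 6 h call also ended without ICG-001 replicates 2 or 3 or DMSO replicate 3, and its siRNA call (0.27 ± 0.08, adjusted p = 0.0372) without any 1 array but control siRNA replicate 1. ELF1 had -0.36 ± 0.09 at 24 h (adjusted p = 0.00533), which did not pass in the deposited scaling (-0.17, adjusted p = 0.194). ERG had -0.92 ± 0.27 with CTNNB1 siRNA (adjusted p = 0.0311) and lost that call without control siRNA replicate 2 or CTNNB1 siRNA replicate 1, with an adjusted p of up to 0.248.

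Of 11 TCF and β-catenin genes 4 were measured. With ICG-001 2 fell at 6 h and 1 fell at 24 h, and with CTNNB1 siRNA 1 rose and 2 fell. Among all genes 13.8%, 20.5% and 12% passed in these comparisons. The medians of the 4 were -0.11, -0.07 and -0.13. TCF7L2, which encodes the β-catenin partner TCF4, fell with CTNNB1 siRNA by 0.54 on the log2 scale (SE 0.12, adjusted p = 0.00452 in limma), from 1192 ± 8.28 to 875.7 ± 28.1 in intensity (± SD, n = 2 each). With ICG-001 its differences were -0.33 ± 0.10 at 6 h (adjusted p = 0.0246) and -0.37 ± 0.10 at 24 h (adjusted p = 0.00771), and neither passed in the deposited scaling (adjusted p = 0.217 and 0.188). Single arrays also decided them, the 6 h call ending without ICG-001 replicate 3 or any DMSO array and the 24 h call without ICG-001 replicate 3 or DMSO replicate 2. CREBBP, which encodes CBP, had -0.61 ± 0.17 at 6 h (adjusted p = 0.0144) and -0.76 ± 0.20 with CTNNB1 siRNA (adjusted p = 0.019), and the first call ended without ICG-001 6 h replicate 1 or DMSO 6 h replicates 1 or 2, the other without replicate 2 of either siRNA. BCL9L, a β-catenin coactivator, rose with CTNNB1 siRNA by 0.54 ± 0.13 (adjusted p = 0.00756), a call that ended without control siRNA replicate 2.

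The genes most like each metalloproteinase were found among 3936 genes by Pearson's r over the 16 arrays, after the mean of each experiment was taken from each gene. The arrays share their treatment groups, so r mainly follows the 6 groups and is a description. Closest to MMP7 were DCLRE1A (r = 0.971), RUVBL1 (r = 0.960) and BCL2L15 (r = 0.958), and most opposed was TRPM4 (r = -0.98). BCL2L15 at 24 h read 344 ± 19.4 with DMSO, against 96.7 ± 11.4 with ICG-001 (± SD, n = 3 each), and 506 ± 27.7 with control and 209 ± 8.24 with CTNNB1 siRNA (± SD, n = 2 each). TRPM4, an ion channel, read 302 ± 1.30 and 570 ± 35.0 in those drug groups, and 121 ± 25.4 and 196 ± 5.64 with the siRNAs.

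Closest to MMP1 were IL37 (r = 0.979), CSTA (r = 0.973) and ADGRG1 (r = 0.966), and most opposed was SKA3 (r = -0.97). CSTA, an inhibitor of cysteine proteases, at 24 h read 11.6 ± 2.91 with DMSO, against 120 ± 19.1 with ICG-001 (± SD, n = 3 each). With control and CTNNB1 siRNA it read 6.73 ± 2.71 and 7.80 ± 1.27 (± SD, n = 2 each).

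Closest to MMP19 were COL5A3 (r = 0.942), HMOX1 (r = 0.930) and ADGRF4 (r = 0.894), and most opposed was ARSD (r = -0.90). HMOX1, or heme oxygenase 1, read 506 ± 55.7 with control and 2414 ± 131 with CTNNB1 siRNA (± SD, n = 2 each), and at 6 h 572 ± 17.4 with DMSO, against 397 ± 4.21 with ICG-001 (± SD, n = 3 each). Of the closest 3, the 12 drug arrays alone kept 1 for MMP7, 2 for MMP1 and 0 for MMP19, and the deposited scaling kept 3, 2 and 2.

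Between the metalloproteinases, r was -0.849 for MMP7 and MMP1 over 16 arrays and -0.996 over the 12 drug arrays. It was -0.54 and 0.175 for MMP7 and MMP19, and 0.06 and -0.12 for MMP1 and MMP19. On the drug arrays MMP7 and MMP1 were thus near mirror images, while MMP19 followed neither.

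**Figure D4:**
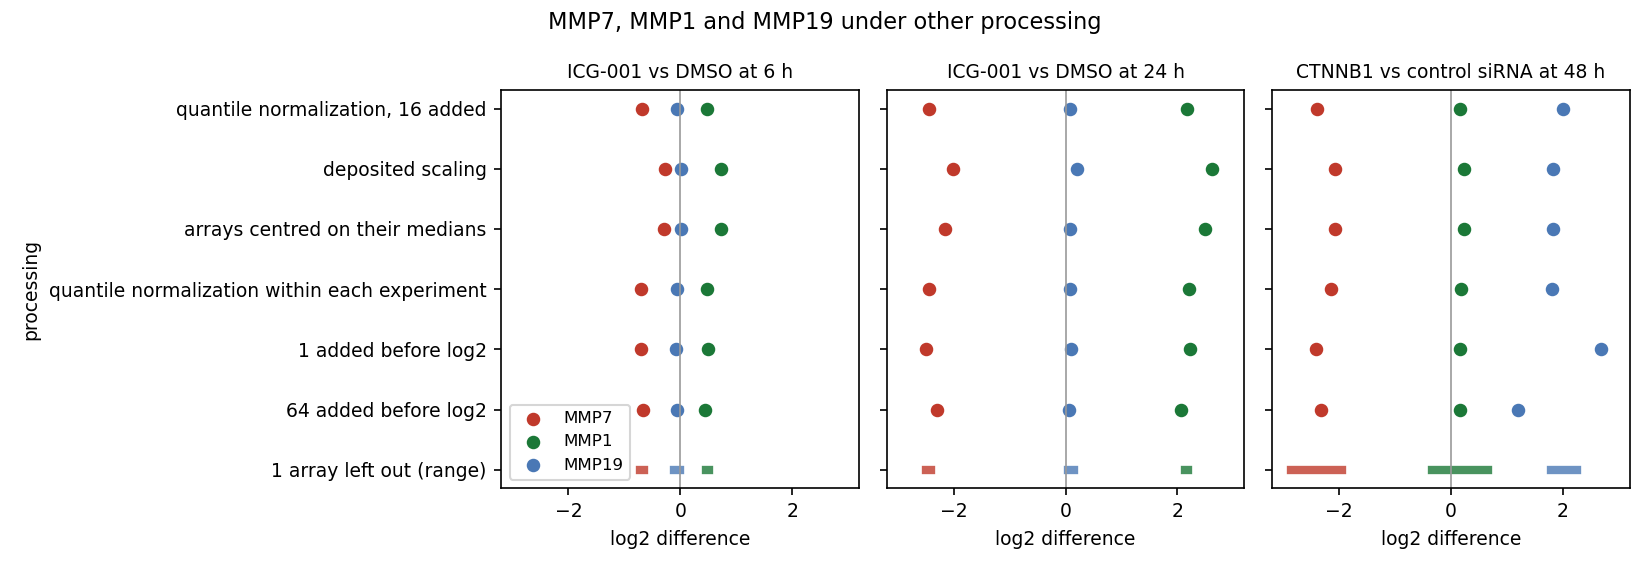
Fitted log2 difference of MMP7, MMP1 and MMP19 in 3 comparisons under 6 ways of processing (points) and the range with 1 array left out at a time (bars). MMP7 at 6 h moved from -0.69 to -0.28 in the deposited scaling, and MMP1 with CTNNB1 siRNA ranged from -0.33 to 0.66 with 1 array left out.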

How the data were processed

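RNA was measured on Affymetrix arrays, 16 in 6 groups. The deposited values are linear intensity values, 1 per probe set and array. How probes were summarised and arrays scaled is not given in the sources used here. The table holds 9554 probe sets, each with a coefficient of variation of at least 0.400 over the arrays (2 lie a rounding error below), so genes that varied little were not analysed here. Platform annotation gave 1 gene for 6442 probe sets, several for 252 and none for 2860.

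To each intensity 16 was added before log2. Array medians differed by 0.636 over all 16 arrays, above the limit of 0.5 set for it, and quantile normalization was applied. The extremes were a drug array (median intensity 28.6) and an siRNA array (12.7). Medians lay closer within each experiment (20.62 to 28.6 and 12.7 to 13.05), and no fitted comparison crosses from one experiment to the other. The probe set of highest mean was kept per gene, leaving 5250 genes. One limma model (limma 3.58.1, R 4.3.3) with a term per group was fitted to 16 arrays with an intensity trend, leaving 10 residual degrees of freedom and adding 7.84 from the prior. The Benjamini-Hochberg adjustment of the two-sided p-values ran over all genes. The threshold was an adjusted p under 0.05. The number of arrays limits the precision. The procedure was tested on simulated data.

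The members, the gene lists and the rules were chosen with earlier results of these data known. Named besides the members were all other measured metalloproteinases and inhibitors, up to 4 called genes of each other list by size of difference, and for each member the 3 genes of highest and the 1 gene of lowest r among genes above the 25th percentile of mean log2 value (4.78). Alternatives covered the number added before log2, the scaling, the filter on low values, the arrays fitted, the replicate block, the trend, the probe sets tested and each array left out.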

Additional observations from a re-analysis of the deposited data

Results flagged for a closer look

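The difference with ICG-001 at 24 h minus that at 6 h passed its own test (the interaction contrast in limma, adjusted over 5250 genes, 3 arrays in each of 4 groups) for 9 genes of the lists of proteinases, matrix proteins and surface proteins. Of all genes 7.81% passed. Measured were 6 other matrix metalloproteinases, 16 ADAM and ADAMTS genes, 2 of plasminogen activation, 11 matrix genes and 6 surface genes. MMP7 and MMP1 also passed, but were chosen on these arrays and are left out here. The genes named for their likeness to MMP7, MMP1 or MMP19 were picked by pattern and are left out too. Among the proteinases it was 0.68 for MMP14 (adjusted p = 0.00997), 0.38 for MMP28 (adjusted p = 0.0315), 0.56 for ADAMTS15 (adjusted p = 0.00252) and 0.98 for ADAMTS17 (adjusted p = 0.00489). The value for MMP28 lost its call without any 1 of 9 of the 12 arrays, with an adjusted p of up to 0.0943. Among matrix genes it was -0.61 for COL5A2 (adjusted p = 0.0135), 1.02 for COL7A1 (adjusted p = 0.00312) and 0.78 for LAMB3 (adjusted p = 0.000298). Among surface proteins it was -0.63 for HBEGF (adjusted p = 0.000188) and 0.46 for CD44 (adjusted p = 0.00523). The sign alone does not say whether a drug difference grew, or which group changed. The drug difference of LAMB3 grew from 0.40 at 6 h to 1.18 at 24 h. That of COL7A1 grew from -0.05 to 0.97. From 6 h to 24 h LAMB3 changed by 0.09 ± 0.09 with ICG-001 and -0.70 ± 0.09 with DMSO. COL7A1 changed by 0.54 ± 0.15 and -0.48 ± 0.15. The drug difference was smaller at 24 h than at 6 h for ADAMTS15 (-0.47 against -1.03) and HBEGF (1.22 against 1.85). That of CD44 was -0.41 at 6 h, so its change of 0.46 was not a growth of that difference. The 6 h value of CD44 turned sign in the deposited scaling.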

How the results depend on the processing

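The 24 h differences of MMP7 and MMP1 with ICG-001 and the siRNA differences of MMP7 and MMP19 kept their direction under every alternative run. With 1 added before log2, MMP1 at 24 h was 2.22 and MMP19 with siRNA 2.68. With 64 added, MMP7 at 24 h was -2.30, MMP1 at 24 h 2.06 and MMP19 with siRNA 1.19. In the deposited scaling the 6 h values were -0.28 for MMP7, 0.73 for MMP1 and 0.018 for MMP19, which turned its sign, and the 24 h values were -2.02, 2.62 and 0.21. With arrays centred on their medians they were -0.29, 0.72 and 0.0061 (MMP19, sign turned) at 6 h, and -2.15 for MMP7 and 2.50 for MMP1 at 24 h. CD44 at 6 h turned to 0.10 in the deposited scaling and 0.084 when centred (adjusted p = 0.604 and 0.743). ELF4 turned to 0.23 and 0.22 at 6 h (adjusted p = 0.0243 and 0.0666), and to 0.12 at 24 h in the deposited scaling (adjusted p = 0.222).

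With 1 array left out, the 6 h range was -0.71 to -0.65 for MMP7, 0.46 to 0.51 for MMP1 and -0.11 to 0.0011 for MMP19. At 24 h it was -2.49 to -2.41, 2.14 to 2.20 and 0.04 to 0.15. With siRNA it was -2.86 to -1.95, -0.33 to 0.66 and 1.78 to 2.26. Between 24 h and 6 h it was 0.05 to 0.10, -0.26 to -0.22 and -0.34 to -0.23 with DMSO, and -1.72 to -1.65, 1.43 to 1.47 and -0.19 to -0.07 with ICG-001. For the change in drug difference it was -1.80 to -1.72, 1.66 to 1.72 and 0.08 to 0.22. Genes called ranged from 622 to 665 at 6 h, 934 to 1025 at 24 h, 489 to 667 with siRNA, 370 to 414 between DMSO times, 791 to 874 between ICG-001 times and 346 to 406 for the change in drug difference.

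Genes called with siRNA numbered 631, but 414 with arrays centred on their medians and 289 on the siRNA arrays alone. Higher genes made up 40.3% of calls at 6 h and 45% at 24 h, against 62.5% and 65.7% in the deposited scaling. Between ICG-001 times they were 48.9% against 61.7%. Centring on medians gave 62.5% at 6 h. Over all settings and left-out arrays, 946 values of named list genes other than MMP7, MMP1 and MMP19 kept their call and direction, 111 lost the call and 5 turned sign. Of the 6 other metalloproteinases, 1 was called with siRNA, against 2 in the deposited scaling and with quantile normalization within each experiment, 0 on the siRNA arrays alone and with no intensity trend, and 0 to 3 with 1 array left out. At 6 h it was 1, against 2 in the deposited scaling and 0 or 1 with 1 array left out. At 24 h it was 2, against 3 in the deposited scaling and 1 without ICG-001 24 h replicate 1. MMP1 between DMSO times was called on the drug arrays alone. The cause of these shifts was not tested.

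Same-numbered arrays did not deviate together (r from -0.146 to 0.0903 over 18 pairs in the drug experiment, with 4 of 12 arrays correlating best with their own number). With the replicate block, 734 genes were called at 6 h, 1093 at 24 h and 656 with siRNA, against 724, 1076 and 631. No call of MMP7, MMP1 or MMP19 changed with it, while those of SERPINB5, CDH1 and ELF4 with siRNA ended.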

Other observations

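In the knockdown experiment, control siRNA replicate 1 lay nearer than replicate 2 to the CTNNB1 siRNA mean for 445 of the 631 called genes (70.5%) and for 53.4% of all 5250 genes. MMP7, MMP1 and MMP19 were each read against these control arrays.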
